A study of Mus musculus with 12 samples.

Results

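Long non-coding RNA (lncRNA) genes held 355 of the 13572 merged m1A regions of the caudate putamen (2.62%). They were built from 569 of the 23413 deposited peaks (2.43%) and lay in 258 of the 12408 autosomal lncRNA genes of the RefSeq table. A peak was taken when its summit, the point of highest tag coverage, lay on chromosomes 1 to 19 inside the span of a lncRNA gene and inside no protein-coding span. Peaks of different libraries that shared at least 1 bp were merged into 1 region. The 7 genes Malat1, Neat1, Meg3, Rian, Mirg, Miat and Snhg11, which are abundant nuclear or neuronal lncRNAs, were left out by the rule. The choice used position alone and no measured height. A gene span includes introns, so a summit inside it may lie in an exon, in an intron or in an unlisted transcript.

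m1A, N1-methyladenosine, carries a methyl group on the Watson-Crick face of adenine and therefore blocks normal base pairing. It is abundant in transfer and ribosomal RNA and rarer in other RNAs, where an antibody pull-down followed by sequencing marks the stretch around it as a peak over the input RNA. LncRNAs are transcripts without a recognised protein product. Many are spliced and polyadenylated like messenger RNA, several serve as hosts from which small nucleolar RNAs or microRNAs are cut, and others act on chromatin or on neighbouring genes.

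The tissue was the caudate putamen, the dorsal striatum, of adult male mice homozygous for a floxed Tet1 allele (Tet1 fl/fl). TET1 oxidises 5-methylcytosine in DNA. Control mice received AAV-EGFP and knockout (KO) mice received AAV-Cre-EGFP in the caudate putamen, which gives the genotype Tet1 delta/delta there, and the region was collected 2 weeks later. Both groups therefore carried the floxed allele, a virus and EGFP, and only cells that the Cre virus reached could lose Tet1. The promoter driving Cre was not given in the sources used here. Each genotype had 3 pull-down libraries made from 90% of the fragmented RNA, each called against its own input made from the other 10%. The labels do not say that libraries of a group came from separate mice, so p-values reflect how much the libraries varied, and that variation may be technical.

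The sequences below show what lies under lncRNA regions at a listed transcription start. The peaks carry no strand, and most of each window lies before the start. Which transcript the RNA of such a region came from is therefore not known. RefSeq promoter windows of GRCm38.p6, each running from 250 bases before to 50 bases after a start, were available for 195 of the 258 genes (75.6%). Of these windows 11 overlapped 10 lncRNA regions. The 5 shown were picked for having at least 50 bases inside a region called in at least 2 libraries and to cover the different calling patterns. Each runs 5′ to 3′ on the strand of its gene, and capitals mark the bases inside the merged m1A region. The window of 4930578G10Rik was chr4:42670040-42670339 on the plus strand, under a region called in all 6 libraries. That of Gm3255 was chr17:14993128-14993427 on the minus strand, under a region called in 5 libraries. That of Gm40237 was chr4:118547156-118547455 on the plus strand, under a region called in 3 libraries. That of Gm46178 was chr1:191120652-191120951 on the plus strand, at a region called in the 3 control libraries. That of Chaserr was chr7:73558346-73558645 on the minus strand, at a region called in 1 library of each genotype.
4930578G10Rik: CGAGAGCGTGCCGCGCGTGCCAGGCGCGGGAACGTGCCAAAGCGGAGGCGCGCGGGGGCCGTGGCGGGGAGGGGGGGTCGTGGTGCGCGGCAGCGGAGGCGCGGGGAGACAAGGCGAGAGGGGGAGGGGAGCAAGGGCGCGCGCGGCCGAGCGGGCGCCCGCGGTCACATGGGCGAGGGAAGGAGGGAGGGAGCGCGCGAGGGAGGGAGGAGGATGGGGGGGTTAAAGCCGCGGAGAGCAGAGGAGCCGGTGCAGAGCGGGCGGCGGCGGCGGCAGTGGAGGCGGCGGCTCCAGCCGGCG
Gm3255: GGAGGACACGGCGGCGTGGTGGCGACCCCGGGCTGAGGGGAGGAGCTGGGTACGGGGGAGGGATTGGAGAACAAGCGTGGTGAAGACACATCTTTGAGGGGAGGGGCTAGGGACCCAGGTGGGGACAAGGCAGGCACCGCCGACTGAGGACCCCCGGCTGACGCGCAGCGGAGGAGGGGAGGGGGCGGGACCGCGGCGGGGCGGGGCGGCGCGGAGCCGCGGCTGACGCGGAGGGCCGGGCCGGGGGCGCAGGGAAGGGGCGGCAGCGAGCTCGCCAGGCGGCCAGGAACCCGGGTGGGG
Gm40237: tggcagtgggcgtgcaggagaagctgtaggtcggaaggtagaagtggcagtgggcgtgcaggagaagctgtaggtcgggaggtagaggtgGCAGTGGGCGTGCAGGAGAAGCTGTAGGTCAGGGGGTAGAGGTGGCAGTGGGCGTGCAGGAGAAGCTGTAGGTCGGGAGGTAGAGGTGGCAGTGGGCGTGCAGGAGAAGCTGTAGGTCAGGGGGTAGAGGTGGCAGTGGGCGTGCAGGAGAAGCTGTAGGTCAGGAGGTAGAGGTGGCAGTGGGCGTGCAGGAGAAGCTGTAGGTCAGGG
Gm46178: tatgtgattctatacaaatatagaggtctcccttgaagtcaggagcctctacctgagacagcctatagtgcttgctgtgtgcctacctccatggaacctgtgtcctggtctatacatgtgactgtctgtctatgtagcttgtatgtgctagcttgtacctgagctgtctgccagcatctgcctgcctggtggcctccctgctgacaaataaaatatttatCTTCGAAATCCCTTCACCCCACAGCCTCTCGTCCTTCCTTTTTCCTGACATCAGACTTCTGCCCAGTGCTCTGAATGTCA
Chaserr: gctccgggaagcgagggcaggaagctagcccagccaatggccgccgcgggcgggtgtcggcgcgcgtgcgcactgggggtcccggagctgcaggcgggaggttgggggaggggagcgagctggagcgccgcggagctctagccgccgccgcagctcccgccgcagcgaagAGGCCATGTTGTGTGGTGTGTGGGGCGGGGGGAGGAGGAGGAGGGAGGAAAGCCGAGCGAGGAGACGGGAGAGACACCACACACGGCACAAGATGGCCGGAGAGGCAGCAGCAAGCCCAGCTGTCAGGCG

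The windows of 4930578G10Rik and Gm3255 lay wholly inside their regions and were GC-rich, at 78.7% and 76.3% G or C. Chaserr had 72.3% G or C with 130 of its 300 bases in the region. Gm40237 is a tandem repeat, since 97.6% of its bases equalled the base 88 positions further on, and 62.7% were G or C. Gm46178 had 80 bases in the region and 48% G or C. Over the 11 windows the GC content ran from 43.3% to 78.7% with a median of 58.7%, beside medians of 52.7% over all 32851 promoter windows and 48.3% over the 11588 of lncRNA genes. The T-loop consensus in which transfer RNAs carry m1A, written GTTCNANNC and searched on both strands, was found in 0 of the 11 windows. It was found in 9.32% of all windows and in 11% of lncRNA windows of the same length. A missing match says only that these letters are not in the window.

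Mir100hg and Mir99ahg, known as hosts of microRNAs, and Snhg20 carried lncRNA regions. Some microRNAs in or downstream of their spans are shown. Only those in Snhg20 lay close to a region, and the others were 6177 bp or more away. The mature sequences are RefSeq entries of the GRCm38.p6 table, written 5′ to 3′ with the seed, bases 2 to 8, in capitals.
mmu-miR-6516-5p: uUUGCAGUaacagguguggaca
mmu-miR-6516-3p: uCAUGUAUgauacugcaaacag
mmu-miR-100-5p: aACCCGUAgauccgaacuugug
mmu-miR-99a-5p: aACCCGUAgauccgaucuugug
mmu-miR-125b-5p: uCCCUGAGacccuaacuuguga
mmu-let-7c-5p: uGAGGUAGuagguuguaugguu

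miR-100-5p, which lies inside the span of Mir100hg, and miR-99a-5p share the seed ACCCGUA. miR-125b-5p, with the seed CCCUGAG, has a locus inside Mir100hg and another on chromosome 16. The entries for miR-99a, let-7c and miR-125b on chromosome 16 lie beyond the end of the Mir99ahg span in the RefSeq table used. No lncRNA region overlapped a listed hairpin (0 of 355), and 3 lay within 5 kb of one. Another 15 regions lay on a chromosome with no hairpin entry in the table. No region of Mir124a-1hg, a microRNA host with a span of 5.85 kb, was among the 3. The table may thus lack hairpins on other chromosomes too, and these counts cover listed hairpins only. The region of Snhg20 was 312 bp from the mature miR-6516-5p and 354 bp from miR-6516-3p. The Mir100hg region nearest to miR-125b-5p was 6177 bp from it. A different Mir100hg region was the nearest to miR-100-5p, at 20046 bp. The regions of Mir99ahg were 151 kb or more from miR-99a-5p.

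The 6 libraries differed in depth and calling, which may bear on every count of regions. The caller used 459332 to 1097292 pull-down tags in the controls and 1235247 to 2508102 in the KO libraries, so no control was as deep as any KO library. Control 1 was the shallowest and was called with all duplicate tags kept, whereas duplicates were limited in the other 5. KO 2 was the deepest and held 6947 peaks beside 3004 to 3782 in the others. Peaks of oligodendrocyte genes (5 markers, such as Mbp and Cnp) were called for 4 markers in each KO library and for 1, 4 and 4 in controls 1 to 3. Of 12 medium spiny neuron markers, 4 to 9 had a peak in each library, and Drd1 and Tac1, which encode the D1 dopamine receptor and the substance P precursor, had none. Astrocyte markers had a peak for 0 to 2 of 6, microglial markers for 0 to 2 of 5, cortical excitatory markers for 1 or 2 of 4, and endothelial and choroid plexus markers each for 0 or 1 of 3. Tet1 itself had no peak, and a missing peak gives no check of the deletion. The part of depth, duplicates or cell mixture in the lncRNA calls was not tested. In bulk tissue, fewer cells of a type and less RNA per cell cannot be told apart.

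The genotypes were compared to see whether loss of Tet1 went with a change in m1A on lncRNA genes. Each library yielded 51 to 214 lncRNA-gene peaks. Controls 1, 2 and 3 had 82, 65 and 51, and KO 1, 2 and 3 had 76, 214 and 81. KO 2 stood far above the rest, and the groups overlapped because control 1 lay above KO 1 and KO 3. The means were 124 ± 78.3 in KO and 66 ± 15.5 in control libraries (SD, n = 3 each), a difference of 57.7 peaks with an exact two-sided permutation p = 0.3 and a Benjamini-Hochberg adjusted p of 0.45 over 9 tests. Without KO 2 the difference was 12.5 peaks. The lncRNA share of each list was 2.58%, 1.89% and 1.7% in controls 1 to 3 and 2.01%, 3.08% and 2.65% in KO 1 to 3. The mean share was 2.58% ± 0.538 in KO and 2.06% ± 0.463 in controls, and this difference of 0.525 percentage points was within the spread between libraries (exact permutation p = 0.2, adjusted p = 0.36). With 3 libraries against 3 the smallest p that the permutation test can give is 0.1. Per 1000000 pull-down tags, control 1 had 179 lncRNA peaks and the other libraries had 59 to 85.3. On that scale the direction turned, with 69.1 ± 14 in KO and 99.1 ± 69.2 in controls (SD, n = 3 each, difference of -29.9, exact permutation p = 1).

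**Figure D1:**
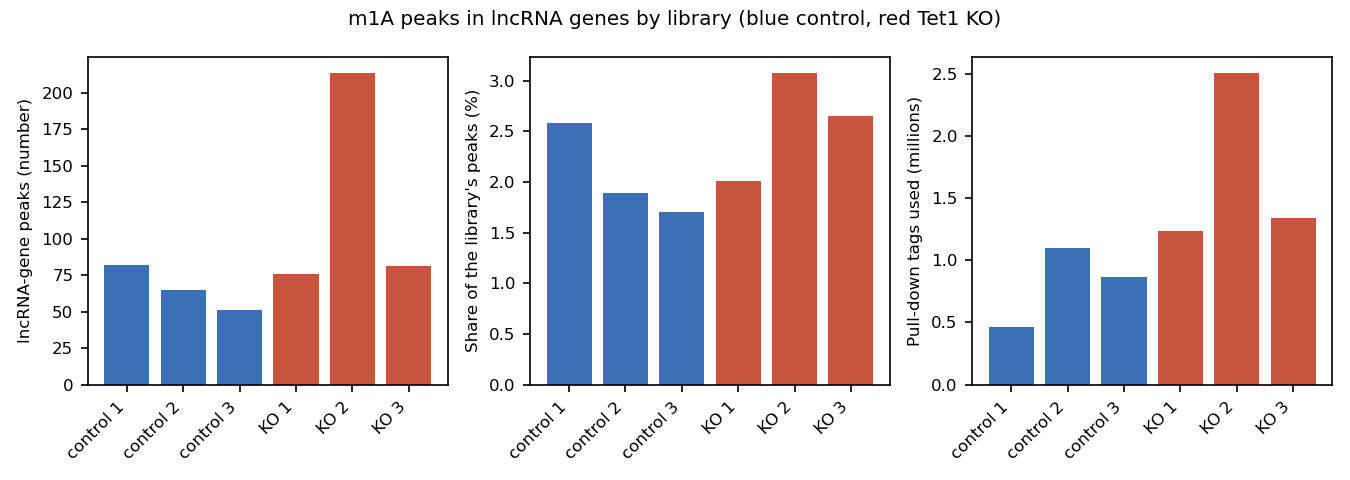
Bars give, for each of the 6 pull-down libraries, the number of lncRNA-gene peaks, their share of the library's peaks in percent, and the pull-down tags used by the caller in units of 1000000; blue bars are control and red bars are KO. KO 2 had 214 lncRNA peaks and the most tags, and the shares ran from 1.7% to 3.08% with the genotypes overlapping.

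Most lncRNA regions were seen in a single library. Of the 355 regions, 264 were called in 1 library (74.4%, beside 69% of all regions and 73.3% of regions in no gene). Another 32 were called in 2 libraries, 31 in 3, 7 in 4, 14 in 5 and 7 in all 6. The regions of 1 library came mainly from the deepest and the shallowest list. KO 2 alone gave 159 and control 1 alone gave 56, together 81.4% of them, while controls 2 and 3 gave 8 and 4 and KO 1 and KO 3 gave 18 and 19. The share called in all 6 libraries was 1.97% of lncRNA regions, 2.96% of all regions and 1.76% of regions in no gene. Regions called in all the remaining libraries numbered 16 without control 1, 11 without KO 2 and 23 without both. At the level of genes, 144 of the 258 were called in KO libraries alone (55.8%, beside 33.8% of the 6680 genes of any kind with a peak), 62 in control libraries alone (24%, beside 22.2%) and 52 in both. By region, 61.7% were called in KO libraries alone, beside 51.7% of all regions and 63.6% of regions in no gene. The gene sets were not matched for regions per gene, and a gene with more regions has more chances of a call in both genotypes. KO 2, the greater depth of the KO lists and regions per gene may bear on the first gene share. Their part was not tested.

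The genes were mostly ones without a name that tells their function. Gene models with a Gm symbol made up 158 of the 258 (61.2%), Rik clones 65 (25.2%) and LOC models 5. By symbol, small nucleolar RNA hosts numbered 6, microRNA hosts (symbols of the form Mir…hg, so without Dleu2 or Snhg20) 3, and genes whose symbol marks an opposite-strand or antisense transcript 7. A single region was found in 205 genes, 36 genes had 2 regions and 17 had 3 or more. Regions were 163 to 1527 bp long, with a median of 194 bp. The highest fold enrichment of a region, the pull-down pileup over the local background as the authors' caller gave it, ran from 2.66 to 257 with a median of 7.26, and exceeded 20 in 13 regions.

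The 7 regions called in every library lay in 6 genes, with fold enrichments between 4.52 and 48.5. Lncpint, an intergenic transcript known as a p53-induced regulator of gene expression, held 2 of them. At chr6:31178647-31179245 its fold was 10.6, 10.9 and 13 in controls 1 to 3 and 6.52, 22.1 and 11.7 in KO 1 to 3. At chr6:31197921-31198338 it was 6.26, 7.88 and 11.8 in controls and 8, 10.6 and 4.52 in KO. In both Lncpint regions the genotypes overlapped, and KO 2 was the highest at the first and control 3 at the second. Lncpint had a further region 1747 bp from its listed start, at chr6:31216514-31217379, with folds of 7.84 and 8.02 in controls 2 and 3 and 11.4, 5.46 and 17.8 in KO 1 to 3. Another, chr6:31107543-31107851, was called in 3 libraries. Control 1 lacked both of these.

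Gm1604a, an uncharacterised lncRNA gene of 253 kb on chromosome 17, had the strongest region of the set called in all 6 libraries. At chr17:8036101-8036626 its fold was 48.5, 24.8 and 17.6 in controls 1 to 3 and 11.9, 10.3 and 11.4 in KO 1 to 3. Every control value lay above every KO value. The tag pileup at the summit ran the other way, at 80, 81 and 73 in controls and 106, 138 and 112 in KO, and these pileups are not scaled to depth. Fold values of different libraries rest on different depths and calling settings, so no test of the difference was made.

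Rnf227, which the RefSeq table lists as a lncRNA with the synonym Chd3os, had a region at chr11:69340924-69341219, 2204 bp from Chd3, which encodes a chromatin remodeller. Its folds were 8.63, 14.9 and 9.54 in controls 1 to 3 and 13.7, 9.25 and 8.72 in KO 1 to 3. 1500004A13Rik, an uncharacterised transcript, had folds of 6.3, 9.86 and 8.95 in controls and 8.07, 6.82 and 7.61 in KO at chr3:88816350-88817095. That summit also lay in the transcribed pseudogene 5830417I10Rik, so which of the overlapping genes carried it is uncertain. The genotypes overlapped in both genes, and the values of this 1500004A13Rik region fell between 6.3 and 9.86, while the folds of its 4 regions together ran from 4.05 to 11.4.

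4930578G10Rik had its common region at the start shown above. At chr4:42669847-42670624 its folds were 4.8, 8.04 and 5.94 in controls 1 to 3 and 7.03, 5.24 and 8.15 in KO 1 to 3, and the summit lay 89 bp from the listed start. Gm52298 had folds of 5.73, 9.86 and 11.9 in controls and 8.34, 6.01 and 7.46 in KO at chr17:15023655-15024181. The genotypes overlapped at both. A second Gm52298 region, chr17:15024261-15024533, had folds of 9.73 and 7.64 in controls 2 and 3 and 13.2, 8.34 and 17 in KO 1 to 3. Gm3255, whose promoter is printed above and which has a span of the same 11.8 kb a short way off, had folds of 14.4 and 13 in controls 2 and 3 and 8.7, 8.01 and 10.4 in KO 1 to 3. Control 1 lacked the second Gm52298 region and the Gm3255 region. Both 4930578G10Rik and this stretch of chromosome 17 may share reads with near-identical copies, and how the aligner placed such reads was not tested.

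**Figure D2:**
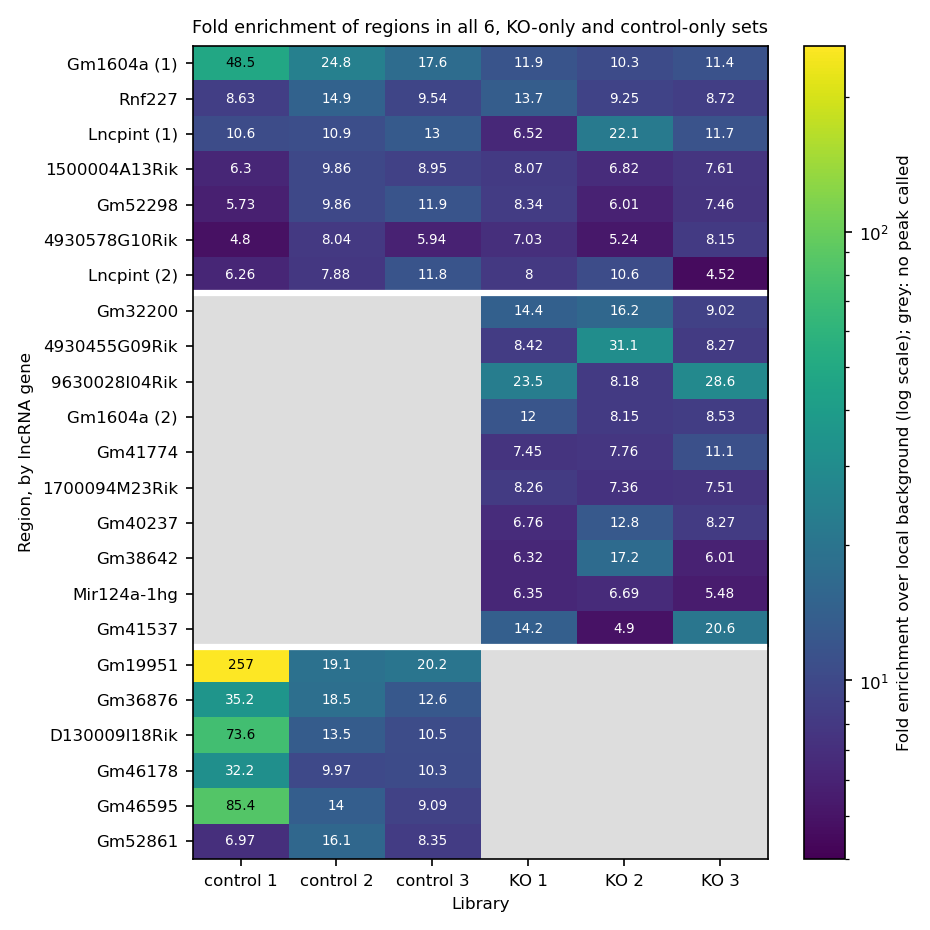
Each row is a lncRNA region and each column a library, and the colour and the printed value give fold enrichment over the local background on a log colour scale; grey cells had no peak. The upper block holds the 7 regions of all 6 libraries, the middle block 10 KO-only regions, and the lower block 6 control-only regions, where control 1 reached 257.

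KO-only regions, called in each of the 3 KO libraries but in no control, numbered 10, which is 2.82% of lncRNA regions beside 1.41% of all regions. Their folds ran from 4.9 to 31.1, and 5 of the 10 were highest in KO 2. These shares describe calls alone: every KO library was deeper than every control, and absence from a shallower list does not show that m1A was absent. With lists of equal length the count was 6. Without control 1 and KO 2 it was 16. That count asks only for calls in the remaining KO libraries and none in the remaining controls, which is a looser rule. The share over all regions was not computed for either setting. With all 6 libraries and full lists, the share was 2.97% among regions in no gene and 1.27% among protein-coding regions. Called in at least 1 KO library and no control were 219 regions (61.7%, beside 51.7% of all regions and 63.6% of regions in no gene).

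Mir124a-1hg, the host of miR-124, an abundant neuronal microRNA, was the only microRNA host among these 10. At chr14:64589175-64589354 its folds were 6.35, 6.69 and 5.48 in KO 1 to 3. A neighbouring region of the same gene, chr14:64590130-64590486, was called in both genotypes, with folds of 4.03 and 3.76 in controls 2 and 3 and 4.74 in KO 3. The gene as a whole was thus called in control libraries too.

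The strongest of the 10 lay in uncharacterised transcripts. 4930455G09Rik at chr4:142025298-142025624 had folds of 8.42, 31.1 and 8.27 in KO 1 to 3, and its pileups were 13, 45 and 10 tags. 9630028I04Rik at chr17:27237397-27237688 had folds of 23.5, 8.18 and 28.6. Gm41537 at chr17:17505154-17506680, the longest lncRNA region at 1527 bp, had folds of 14.2, 4.9 and 20.6. The high library thus differed between these genes, being KO 2 in 4930455G09Rik and KO 3 in the other two. Gm32200 at chr1:191456838-191457220 had folds of 14.4, 16.2 and 9.02 in KO 1 to 3.

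Gm38642, in a gene 56740 bp from Mobp, which encodes a myelin protein of oligodendrocytes, had folds of 6.32, 17.2 and 6.01 at chr9:120237854-120238464. Oligodendrocyte markers had peaks in 4 of 5 genes in each KO library and in 1, 4 and 4 in controls 1 to 3, and their part in this result was not tested. Gm1604a had a KO-only region besides its common one, chr17:7993014-7993427, with folds of 12, 8.15 and 8.53. Gm40237 at chr4:118547845-118548372, next to the tandem repeat printed above, had folds of 6.76, 12.8 and 8.27. The region at the repeat itself was called in both genotypes, at 6.34 in control 2 and 6.01 and 10.8 in KO 1 and KO 2. 1700094M23Rik had folds of 8.26, 7.36 and 7.51 at chr3:153182272-153182470. The lowest pileups of the KO-only regions of Gm1604a, Gm40237 and 1700094M23Rik were 15, 8 and 8 tags, which shows how few tags an individual call rested on.

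Gm41774 at chr18:74778484-74778716 had folds of 7.45, 7.76 and 11.1 in KO 1 to 3, with pileups of 46, 74 and 80 tags. Its region overlapped Gm23119, a guide RNA gene, so the lncRNA and the small RNA cannot be told apart there. It was the KO-only region with the highest pileups.

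The reverse set, called in all 3 control libraries and in no KO library, held 6 regions, 1.69% of lncRNA regions beside 0.796% of all regions. For regions in no gene that share was 1.58%. The KO libraries, which lacked the 6 regions, were the deeper ones. Without control 1 and KO 2 the count was 10. It too rests on the looser rule, over the remaining libraries alone, and its share over all regions was not computed. Control 1 was the highest of the 3 controls in 5 of the 6. Called in at least 1 control and no KO library were 80 regions (22.5%, beside 27.5% of all regions and 22.9% of regions in no gene).

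Gm19951, one of the loci listed as collecting ribosomal RNA reads, had folds of 257, 19.1 and 20.2 in controls 1 to 3 at chr12:99645029-99645616. Gm46595 had folds of 85.4, 14 and 9.09 at chr17:70963561-70963863. In control 1 their pileups were 1118 and 1087 tags, beside 23 to 31 tags in controls 2 and 3. These were the only 2 of the 82 lncRNA peaks of control 1 with a pileup above 1000, in the library where duplicate tags were kept. Gm15564, the other listed locus of that kind with a region, was called in controls 1 and 2 at 6.72 and 5.44. The part of duplicates or ribosomal RNA in these calls was not tested.

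D130009I18Rik had folds of 73.6, 13.5 and 10.5 in controls 1 to 3 at chr14:104715915-104716205. Gm36876 had 35.2, 18.5 and 12.6 at chr11:109011534-109012008, and Gm46178, whose start is printed above, had 32.2, 9.97 and 10.3 at chr1:191120872-191121248. Control 1 led in all 3 genes. Gm52861 at chr6:47744480-47744712 had folds of 6.97, 16.1 and 8.35, and there control 2 led. In controls 2 and 3 the folds of these 6 regions ran from 8.35 to 20.2. The 5 lncRNA peaks with the highest fold of all libraries, 257, 85.4, 73.6, 48.5 and 35.2, were all in control 1.

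Several other named lncRNAs have known roles. Tug1, an abundant neuronal transcript first described for its role in retinal development, had folds of 5.26, 5.76 and 4.71 in controls 1 to 3 and 5.65 and 7.76 in KO 1 and KO 3 at chr11:3648306-3648669, and KO 2 had none there. Norad, which binds PUMILIO proteins, was called in 4 libraries at chr2:156392298-156392934, with 4.24 and 4.63 in controls 2 and 3 and 5.36 and 3.85 in KO 1 and KO 3. That span is shared with Gm14170. The deepest and the shallowest list, KO 2 and control 1, both lacked the Norad region, and the genotypes overlapped in both genes.

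Chaserr, a transcript next to Chd2 that restrains expression of that chromatin remodeller, had 2 regions near its start. The first, chr7:73558227-73558475, had folds of 8.18 in control 3 and 10.9 in KO 3. The other, chr7:73557781-73558019, had 8.22 in control 3 and 4.3 in KO 3. The same pair of libraries carried both regions. Dleu2, the host of the miR-15a and miR-16-1 cluster, had folds of 7.95 and 9.78 in controls 2 and 3 and no KO call. Phf2os1 was likewise called in controls 2 and 3, at 8.4 and 6.84.

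Small nucleolar RNA hosts had peaks in few libraries. Snhg20 was called in 3, with folds of 6.88 in control 2, 9.36 in KO 1 and 11.1 in KO 3 at chr11:117076840-117077058. Snhg14, the long transcript of the Prader-Willi and Angelman region that runs antisense to Ube3a, had 4 regions, all in KO 2, of which the one at chr7:59323954-59324157 was also called in KO 1 (folds of 7.81 and 7.71 in KO 1 and KO 2). That region lay 13220 bp from Ube3a. Snhg5 had a fold of 11.4 in KO 3, Snhg12 7.13 and Snhg8 4.62 in KO 2, and Snhg15 4.53 in control 2. All but Snhg20 and Snhg14 were thus called in a single library, as were 174 of the 258 lncRNA genes.

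The remaining listed genes were called in 1 or 2 libraries each. Mir100hg had 3 regions, all in KO 2, with folds of 6.62, 7.66 and 8.89, and Mir99ahg had 2, both in control 1, with 3.84 and 4.36. Zmiz1os1, opposite to the gene of a transcriptional coregulator, had 4 regions, 3 in KO 2 at 7.43, 15.7 and 8.26 and the other in KO 1 at 8.22. Sox2ot, whose span holds the Sox2 gene, had a fold of 6.62 in KO 3, Rmst 6.75 and Pantr1 6.29 in KO 2. Each of these genes was thus called in 1 genotype alone, and in 1 library alone except for Zmiz1os1. Gt(ROSA)26Sor, the locus used for transgene insertion, had 9.26 in KO 3, 365 bp from Setd5. Kcnmb4os2, Ggnbp2os, Cep83os and Banf2os had 9.32 in KO 2, 6.7 in KO 1, 6.45 in control 3 and 3.84 in control 1. Gm10419 had 2 regions, 7.87 in control 2 and 8.79 in KO 2.

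In 13 of the 355 lncRNA regions a peak summit also lay in the span of another non-coding gene. Overlaps away from a summit were not counted. A Gm39918 region at chr2:122375479-122375697 overlapped the transfer RNA gene n-THgtg4, and its folds were 7.68, 9.97 and 14.8 in controls 1 to 3 and 8.26 and 8.43 in KO 1 and KO 3. A second Gm39918 region without such an overlap, chr2:122377212-122377424, had folds of 11.5, 15.4 and 11 in controls and 15.3 and 10.7 in KO 1 and KO 3, so KO 2 lacked both. The region shared by Gm10685 and Gm40099 overlapped the U1 snRNA gene Rnu1b6, with folds from 2.42 to 10.8 in 5 libraries. A Gm36220 region overlapped Snord104 at 7.27 and 7.37. The others overlapped pseudogenes, apart from the guide RNA gene in Gm41774.

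The other regions of 5 libraries lay in uncharacterised genes. 4921531C22Rik, 401 bp from Taf4, which encodes a subunit of the general transcription factor TFIID, had folds of 14.7 and 8.97 in controls 2 and 3 and 12.6, 7.43 and 8.53 in KO 1 to 3. C230014O12Rik had 10.3 and 6.36 in controls 2 and 3 and 6.51, 5.6 and 9.04 in KO. Gm46033 had 2 such regions, at 6.01 to 9.81 and 6.49 to 9.97. 1700030F04Rik had folds of 2.47 to 3.36 with pileups of 50 to 90 tags, and Gm39043 had 5.42 to 10.1 with pileups of 6 to 14. Fold and pileup thus ranked these last genes in opposite order.

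Regions were not spread evenly over genes, and the genes with the most were large. 4930578G10Rik, in a stretch of chromosome 4 known to hold duplicated chemokine and receptor genes, had 21 regions over a span of 202 kb. KO 2 had 15 of them, KO 3 had 7, control 1 had 3, control 2 had 2, and control 3 and KO 1 had 1 each. Gm1604a had 16 regions. A tight group of 11 filled 6.15 kb at chr17:7907388-7913541, where all 11 were called in KO 2 at folds of 4.91 to 19.6 and 1 was also called in control 3. A930011G23Rik had 8 regions over 432 kb, 6 in KO 2 and 3 in control 2. 5730522E02Rik had 5 over 594 kb, 4 of them in control 1. Neighbouring regions of 1 gene share a transcript and are not independent.

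**Figure D3:**
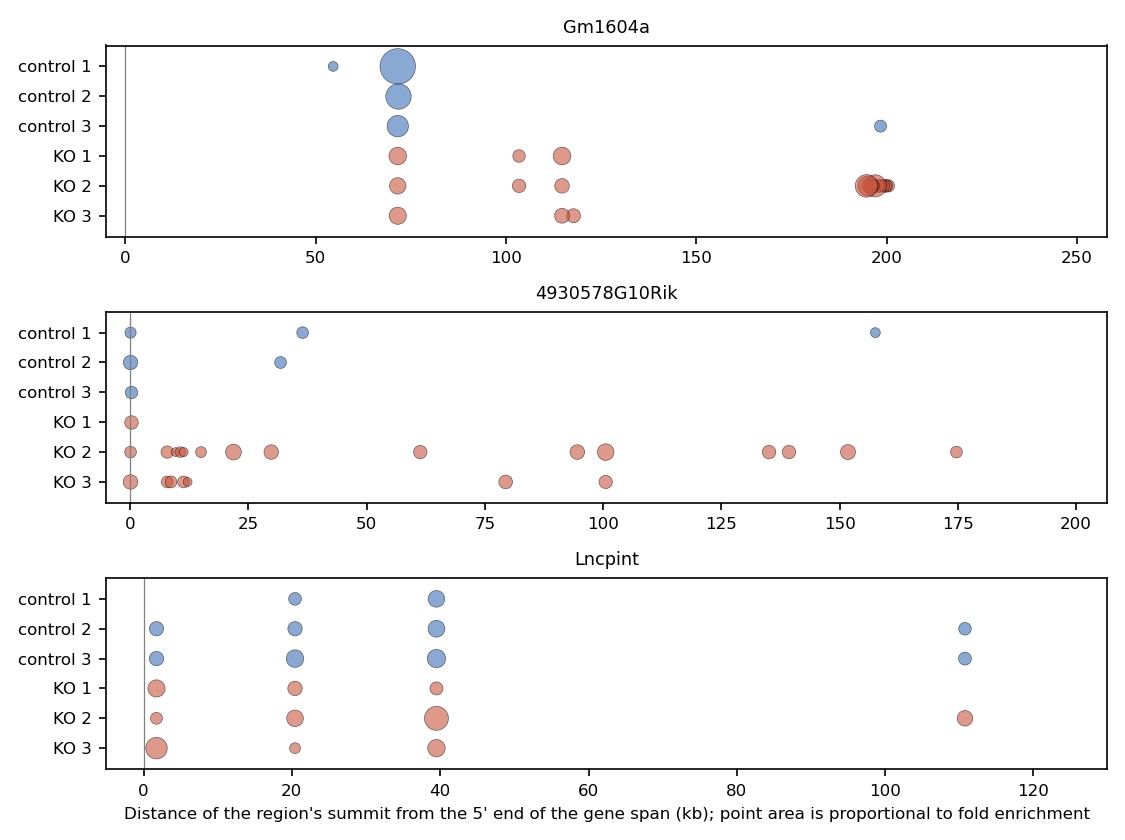
Each panel is a lncRNA gene, the horizontal axis is the distance of a region's summit from the 5′ end of the gene span in kb, rows are libraries (blue control, red KO), and the area of a point is proportional to fold enrichment. Points of a region sit at its merged summit in every library, so their alignment across rows is built in. Lncpint regions were each called in 3 to 6 libraries. The dense group of Gm1604a is in KO 2, and the many regions of 4930578G10Rik are mainly in KO 2 and KO 3.

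Within each list, peaks in lncRNA genes were compared with peaks in protein-coding spans, so that depth and calling were shared by both sides. The median fold was 3.97, 7.88 and 8.02 in controls 1 to 3 and 7.24, 7.4 and 7.51 in KO 1 to 3 for lncRNA genes. For protein-coding genes it was 4.65, 7.15 and 7.14 in controls and 7.21, 7.15 and 7.53 in KO. The mean log2 ratio was 0.02 (exact sign-flip permutation p = 0.812 over 6 libraries, adjusted p = 0.875), so no difference was detected. The median length also gave no detected difference, with a mean log2 ratio of -0.01 (exact permutation p = 0.625, adjusted p = 0.804). Median lengths were 170 to 240 bp in lncRNA genes and 170 to 232 bp in protein-coding genes. In control 1, 63 of the 82 lncRNA peaks (76.8%) had exactly the modelled fragment length of 170 bp, and 53 had a pileup of 4 tags or fewer.

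The share of peaks found in no other library was 68.3%, 12.3% and 7.84% in controls 1 to 3 and 23.7%, 74.3% and 23.5% in KO 1 to 3 for lncRNA genes. It was 66.7%, 18.8% and 17% in controls and 27.5%, 63.6% and 19.8% in KO for protein-coding genes. The mean difference was -0.591 percentage points (exact permutation p = 0.875, adjusted p = 0.875). The lncRNA share was the higher one in control 1, KO 2 and KO 3 and the lower one in the others. The same differences set against each other between genotypes gave exact permutation p-values of 0.2 or more for all 7 within-list measures.

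Summit pileup differed in 1 direction in every list. The median pileup in lncRNA genes was 3.5, 13 and 12 tags in controls 1 to 3 and 12, 13 and 13 in KO 1 to 3. In protein-coding genes it was 4, 19 and 18 in controls and 17, 18 and 20 in KO. It was lower in lncRNA genes in 6 of 6 libraries, by a mean of 0.49 on the log2 scale (log2 ratio -0.49, exact permutation p = 0.0312, the smallest this test can give, adjusted p = 0.0938). This measure was added after the values had been seen, and it did not pass 0.05 after adjustment. With the 7 left-out genes included the mean log2 ratio was -0.14 (exact permutation p = 0.125, lower in 4 of 6 libraries).

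**Figure D4:**
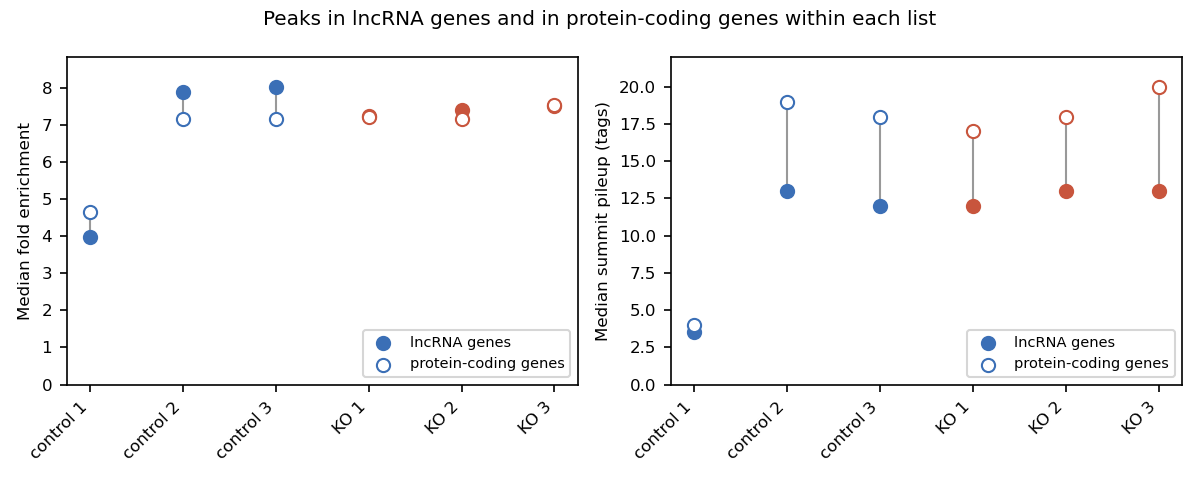
For each library, the filled point is the median over lncRNA-gene peaks and the open point the median over protein-coding peaks, for fold enrichment on the left and for summit pileup in tags on the right; blue is control and red is KO. Median folds lay close together, while the median pileup was lower for lncRNA genes in 6 of 6 libraries.

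The position of summits along the gene span was compared between lncRNA and protein-coding genes. The first 20% of the span held 34.3%, 52.7% and 48.9% of lncRNA summits in controls 1 to 3 and 30.5%, 26.4% and 46.8% in KO 1 to 3. For protein-coding genes it held 35%, 51.3% and 52% in controls and 45.8%, 28.1% and 53.9% in KO, a higher share than for lncRNA genes in every library but control 2. The last 20% held 7.46%, 5.45% and 8.89% in controls and 10.2%, 14.4% and 4.84% in KO. For protein-coding genes the last 20% held 16.9%, 17.9% and 17.5% in controls and 17.5%, 23.2% and 14.4% in KO. The lncRNA share was lower in 6 of 6 libraries, by a mean of -9.39 percentage points (exact permutation p = 0.0312, adjusted p = 0.0938). In KO 2 the 20% before it held 25.9% of lncRNA summits, beside 15.4% of protein-coding ones. The tight Gm1604a group of 11 regions lay there. In the other libraries that bin held 9.68% to 11.9% of lncRNA summits. Other bin edges were not tried. The position could be computed for 281 of the 355 regions, those whose gene has a strand in the promoter table.

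**Figure D5:**
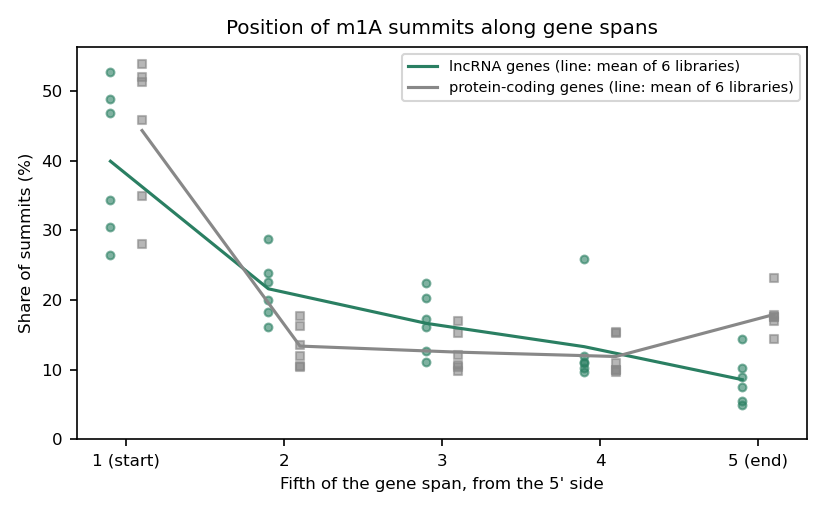
Points give, for each of the 6 libraries, the share of summits in percent in each bin of 20% of the gene span from the 5′ side, and lines join the means over the libraries, with green circles for lncRNA genes and grey squares for protein-coding genes. In the last bin the lncRNA shares lie between 4.84% and 14.4% and each is below the protein-coding share of its own library.

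Summits within 500 bp of a listed start made up a smaller share in lncRNA genes in each library. The shares were 14.9%, 32.7% and 24.4% in controls 1 to 3 and 18.6%, 8.62% and 22.6% in KO 1 to 3, beside 17.7%, 40.7% and 42.5% and then 32.3%, 11.9% and 39.3% in protein-coding genes. The mean difference was -10.4 percentage points, lower in 6 of 6 libraries (exact permutation p = 0.0312, adjusted p = 0.0938). In both sets KO 2 and control 1 had the lowest shares. The median distance to a listed start had no common direction, being 6.7, 1.79 and 5.79 kb in controls 1 to 3 and 7.97, 12.9 and 8.62 kb in KO 1 to 3 for lncRNA genes. For protein-coding genes it was 21, 1.89 and 1.3 kb in controls and 4.58, 24.1 and 1.49 kb in KO, so the lncRNA median was the shorter one in control 1, control 2 and KO 2. Both position measures were added after values had been seen and did not pass 0.05 after adjustment. The gene spans also differed, with medians of 21.6 to 47.2 kb behind lncRNA peaks and 40.6 to 94.6 kb behind protein-coding peaks, and their part in these results was not tested.

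Some lncRNA regions lay close to a protein-coding gene, from which an unlisted extension or a divergent transcript cannot be told apart by span alone. The median distance from a region's summit to the nearest protein-coding gene was 25.1 kb, and 69 regions (19.4%) lay within 5 kb. Of the 54 of these whose neighbour has a listed strand, 40 lay at its 5′ end (74.1%) and 14 at its 3′ end. For regions in no gene, 267 of 1077 (24.8%) lay within 5 kb, with 116 at the 5′ end and 105 at the 3′ end (52.5% at the 5′ end). Tug1 was 793 bp from the 5′ end of Morc2a, Sox2ot 654 bp from Sox2, Kcnmb4os2 606 bp from Kcnmb4, Phf2os1 477 bp from Phf2, Cep83os 269 bp from Cep83 and Ggnbp2os 234 bp from Ggnbp2. The share of peaks within 5 kb of a protein-coding gene was 17.1% to 24.6% over the libraries in lncRNA genes and 21.7% to 32% for peaks in no gene. The mean difference of -3.87 percentage points was within the spread between libraries (exact permutation p = 0.0938, adjusted p = 0.211).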

How the data were processed

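m1A pull-down and input RNA were sequenced from 12 samples, 6 of each kind. Tools listed in the submitters' processing notes were cutadapt 2.8, HISAT2 2.1.0 and MACS2 2.2.6, with build GRCm38. Per the file headers, the authors ran the caller on each pull-down with its input as control, with a q-value limit of 0.01 and no pooling. The deposited lists give each peak's summit pileup, a coverage signal, its −log10 p and −log10 q, and the fold enrichment (a ratio). These are the authors' values and describe or rank peaks within a list. A list holds no reads outside peaks, so no counting interval can be given.

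Summits were placed in a RefSeq table of GRCm38.p6 with 49997 gene spans, without exons. A region was called in a library when any peak of that list overlapped it by at least 1 bp. Under the stricter reading that only a peak in a lncRNA gene counts, 1 region changes its status. Genotypes were compared by an exact two-sided permutation test over 20 assignments, and lncRNA peaks with protein-coding peaks by an exact two-sided sign-flip test over 64 sign patterns. Benjamini-Hochberg adjustment covered 9 tests, 3 of them added after values had been seen. Scripts ran in python 3.11.15 with numpy 2.4.6 and pandas 2.3.3 and were tested on simulated data. The members and lists were chosen with earlier results of these data known. The named genes were regions called in all 6, in KO-only or in control-only libraries, the genes with most regions, the highest peaks and the genes of preset lncRNA lists. Regions of 5 libraries, regions overlapping another non-coding gene and Gm3255 were named after their values were seen. Alternatives were a stricter q or fold, lists of equal length, the 7 left-out genes, leaving out libraries, and a replicate block. Further ones were a stricter reciprocal overlap between peaks, any overlap with gene spans, and leaving out loci that can collect ribosomal RNA reads. Distance limits of 1 and 20 kb were also tried. Same-numbered control and KO libraries had correlations of -0.025, -0.019 and -0.011, and those with unlike numbers ran from -0.000 to 0.025. The main tests did not use the numbers as pairs. With all values this near to no correlation, a shared batch is not excluded. A marker of the oligodendrocyte list is not reported here.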

Additional observations from a re-analysis of the deposited data

How the results depend on the processing

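The number and share of lncRNA-gene peaks, KO minus control, kept their direction under the alternatives run, though peaks per 1000000 tags turned to -29.9. They differed by 12.5 to 81.5 peaks and 0.275 to 0.81 percentage points when each library was left out in turn. With the replicate number as a block the differences were 57.7 peaks (exact permutation p = 0.5) and 0.525 percentage points (exact permutation p = 0.5), and the smallest p is 0.25. Regions of all 6 libraries numbered 7 to 16 with each library left out, with 16 without control 1 and 11 without KO 2. Leaving out control 1 and KO 2 together gave 23 regions of all libraries, 16 KO-only and 10 control-only. With each library left out, KO-only regions numbered 10 to 15 and control-only 6 to 9. Counts with libraries left out ask for calls over the remaining libraries alone, so they are not like for like with those over 6 libraries. Shares over all regions were not computed for the alternatives. Lists of equal length, the 3004 best peaks each, gave 6 KO-only regions. A stricter reciprocal overlap gave 8 KO-only and 7 control-only regions. Leaving out loci that can collect ribosomal RNA reads gave 10 and 5. The log2 ratio of median fold turned to -0.0759 with the 7 left-out genes and ran from -0.0069 to 0.072 with each library left out. That of median length turned to 0.0544 at a −log10 q of at least 5, 0.0181 with equal lists and 0.0495 with the 7 genes, and ran from -0.021 to 0.0025. That of pileup was -0.40 at a −log10 q of at least 5 (exact permutation p = 0.0938, lower in 5 of 6 libraries). At a fold of at least 4 it was -0.43 (exact permutation p = 0.0625, lower in 5 of 6 libraries). It was -0.14 with the 7 genes, -0.56 without control 1 and KO 2, and -0.55 to -0.46 with each library left out. The difference in the last 20% of the span was -9.5 percentage points without both libraries and -9.79 to -8.77 with each left out. The start difference was -14.1 and -11.9 to -8.87. With fewer than 6 libraries the sign-flip test cannot reach 0.05 by construction. Every control was shallower than every KO library, and the part of depth in the absence calls was not tested.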

Other observations

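LncRNA genes of the X chromosome, which lie outside the autosomal regions described above, had 29 peaks in 9 genes. AW822252 had 10 peaks over the 6 libraries, with folds of 4.53 to 13.9. 3632454L22Rik had 8 peaks in 2 libraries, with folds of 5.4 to 12.3. The 7 genes left out by the rule together had 2 peaks in control 1 and 16 to 19 in each of the other libraries.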
